A study of Caenorhabditis elegans with 4 samples.

Results

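The genes osta-1, ric-8, calf-1, T05C12.8, ZK682.7, xbx-6, npp-25, pdhb-1 and F09G2.8 are C. elegans genes with a predicted X-box upstream of the start codon, and they stand in the study's list of 83 X-box genes with human homologs. They were drawn from that list as candidates whose annotation gives no role in the cilium, with the array values already known. They are 9 of the 17118 genes that the array measures with a probe set naming 1 gene, and 12 of its 22548 probe sets belong to them. The label is not exact for osta-1, which has been tied in C. elegans to the shape of sensory cilia. The study also reports a promoter reporter of ric-8 in ciliated cells alone. It lists xbx-6 in phasmid neurons of the tail, and F09G2.8 and pdhb-1 in head neurons, each beside other tissues. For npp-25 it lists the pharynx only. RNA of whole embryos was hybridised to 4 Affymetrix C. elegans genome arrays. By the labels, daf-19(-) arrays (n = 2) are of daf-19(m86);daf-12(sa204) embryos and daf-19(+) arrays (n = 2) of daf-12(sa204) embryos, but the study's own table names the arrays the other way round, as given below. The daf-12(sa204) mutation was thus shared by all 4 samples. It keeps daf-19 mutants from arresting as dauer larvae. Eggs of unstated age were freed from gravid adults with hypochlorite and frozen in bulk, so a change in the number of cells of a type and a change in the RNA of each cell cannot be told apart.

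DAF-19 is the only RFX-family transcription factor of C. elegans. It binds X-boxes, short inverted repeats close upstream of the start codon, and switches on the genes from which sensory neurons build their cilia. These are the motor and intraflagellar transport (IFT) genes, which carry material along the cilium, and the Bardet-Biedl (bbs) genes, whose products hold the transport particles together. In the worm only sensory neurons carry cilia, and these form late in embryogenesis.

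The X-boxes from which the study built its search model show what a candidate had to resemble. Of 15 such motifs of 13 genes, each 14 bases long, 5 positions held the same base in every motif, and these are in capitals. The other 9 positions are in lower case. Motifs of daf-19 itself, of the dynein gene xbx-1, of the IFT genes osm-6 and che-2, and of bbs-8 and arl-6 are shown because these are established ciliary genes:
daf-19: GtttccATggaaAC
xbx-1: GtttccATggtaAC
osm-6: GttaccATagtaAC
che-2: GttgtcATggtgAC
bbs-8: GtacccATggcaAC
arl-6: GtttccATggttAC
The first base, the AT at the centre and the final AC did not vary. The T at the second position was found in 13 motifs, the G at the tenth in 14, and the T at the fourth in 5. The X-boxes of the 9 candidates themselves were not analysed here.

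The labels and the study's own table name the arrays in opposite ways. In 1998 of 1998 rows compared, each column that the table heads daf-12 held the signals of the array labelled daf-19(-) of the same number, and the reverse. The daf-19 probe sets read 2493.4, 2365.2, 767.5 and 856.8 and 1456.2, 1231.2, 440.2 and 460.2, in the order labelled daf-19(-) replicates 1 and 2, then labelled daf-19(+) replicates 1 and 2. This order is used throughout. The mean was thus 2.99-fold and 2.98-fold higher on the arrays labelled daf-19(-). These probe sets do not settle which arrays held mutant RNA, because a mutant transcript may still be made. Every ratio below is labelled daf-19(-) over labelled daf-19(+). The study's table divides the same arrays in the same order, under the opposite genotype names. By those names a ratio above 1 is a lower signal in daf-19 mutant embryos. The study reports many known X-box genes as lower in those embryos. By the labels such a ratio is a higher signal in them. Which naming is right was not tested.

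Median signals of the arrays were 136.2, 144.4, 106.0 and 126.8. Arrays of one group correlated at 0.97 and 0.96 on the log2 scale, and arrays of different groups at 0.93 to 0.96. Among marker lists for other cells of the embryo, none had a gene that passed the limma test, but they were not level. The 13 tested pan-neuronal genes had a median log2 fold change of 0.55 and 8 were higher without overlap between groups, against 30.9% of all tested genes. Their median was 0.28 after division of each array by its median and 0.15 without replicate 1 labelled daf-19(+). They had summed signals of 14080, 13540, 9750 and 12440. The sums were lowest on replicate 1 labelled daf-19(+) for neurons, muscle (38720 against 44700 to 48300), pharynx (4151 against 6262 to 6435), intestine (9421 against 12470 to 16920) and epidermis (16570 against 18940 to 20170). That array also had the lowest median signal of the 4, 106.0. Higher without overlap were 7 of 8 intestine genes (87.5%, median 0.45). For muscle the count was 5 of 11 (45.5%, 0.28), for epidermis 3 of 7 (42.9%, 0.21) and for pharynx 1 of 7 (14.3%, 0.35). Against the 30.9% of all tested genes, pharynx was lower, and muscle and epidermis lay nearer to that share than intestine. The early zygotic genes, transcribed in the young embryo, ran the other way: 6 of 7 were lower without overlap (median -0.76), against 23% of all tested genes, with sums of 3277, 3162, 6681 and 4763. The 8 germline and maternal genes had a median of -0.21 and a highest value of -0.09, and 3 were lower without overlap. Of 10 genes that mark ciliated sensory neurons, the channel genes tax-2, osm-9 and ocr-2 and the cyclase gene odr-1 were below a signal of 80 on all 4 arrays, and the 4 tested had a median of 0.02. The part of cell composition or embryo age in the candidates' values was not tested.

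All 12 probe sets of the candidates reached a signal of 80 on 2 or more arrays, the filter that 58.1% of the array's probe sets passed. T05C12.8 and osta-1 passed only through the arrays labelled daf-19(-). The genes were selected on these same signals, the contrast of the 4 arrays, so the counts that follow are a description. In limma's test 0 of the 12 probe sets had an adjusted p under 0.05 in either direction, where 0.359% of all 13096 tested were called higher and 0.084% lower. At an unadjusted limma p under 0.05, 4 were higher (T05C12.8, osta-1, ZK682.7 and calf-1) and 0 lower. The share of all tested probe sets under that threshold was not taken, so this count cannot be judged. In a fit blocked on replicate number, 3 were called higher (T05C12.8, ZK682.7 and 1 of the 2 ric-8 probe sets) and 0 lower, against 4.37% and 3.01% of all. That fit gave no weight to a probe set's own spread and used the spread usual at its signal. The ric-8 probe set was called although its groups overlapped. Mean signal was 2-fold or more higher for 4 probe sets, against 3.13% of all, and for 0 it was 2-fold or more lower, against 0.977%. Both arrays labelled daf-19(-) lay above both labelled daf-19(+) for 4 probe sets and below for 1, against 29.7% and 21.6% of all. The remaining 7 overlapped. The median log2 fold change of the 12 was 0.19, beside 0.06 over all tested.

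**Figure D1:**
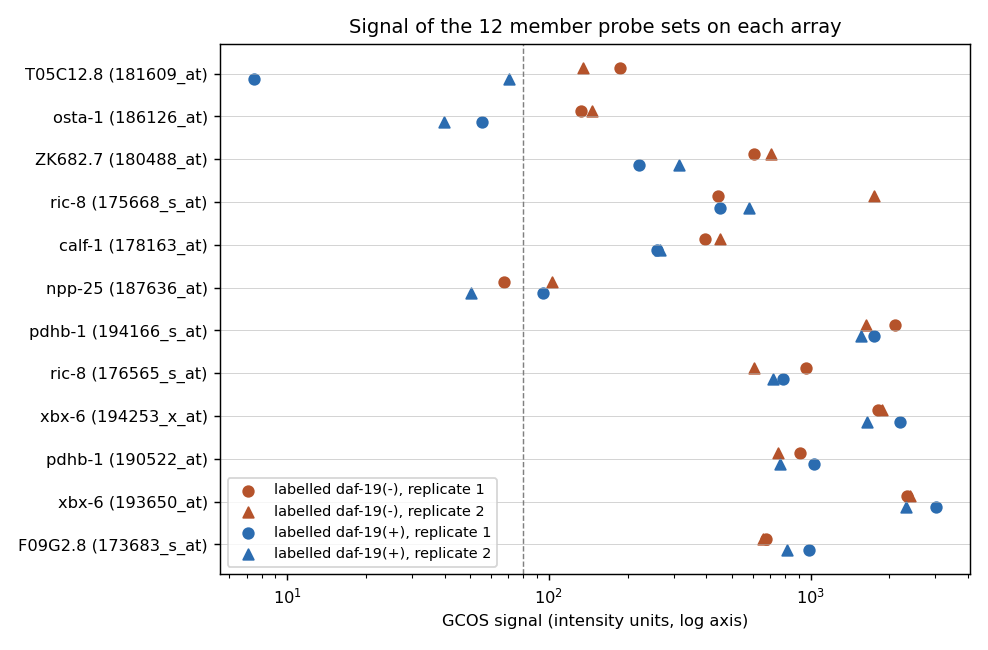
Signal of each of the 12 probe sets (rows) on each of the 4 arrays, on a log axis, with circles for replicate 1, triangles for replicate 2 and a dashed line at the signal of 80 used as the filter. T05C12.8, osta-1, ZK682.7 and calf-1 have both points labelled daf-19(-) to the right of both labelled daf-19(+), and F09G2.8 has them to the left.

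Among the candidates that act at membranes, osta-1 (C01B12.4, chromosome II), a relative of the alpha subunit of vertebrate organic solute transporters, stood 2.93-fold higher. Its signals were 132.8, 145.7, 55.6 and 39.6, or 139 ± 9.12 (SD, n = 2) against 47.6 ± 11.3. The replicates of each group lay close together, and the groups did not overlap. The log2 fold change was 1.30 (SE 0.42). The ratio was 2.39 in experiment 1, which pairs the arrays numbered 1, and 3.68 in experiment 2. Both arrays labelled daf-19(+) were under the filter's signal of 80, and with 80 in their place the ratio would be 1.74. Of its family, osta-2 read 1333.0, 1356.0, 1041.8 and 1262.0, also higher without overlap but with a log2 fold change of 0.23, and osta-3 had one of 0.02. A difference between these genes was not tested.

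calf-1 (B0250.2, chromosome V) codes for an endoplasmic reticulum protein that brings voltage-gated calcium channels to the synapses of C. elegans. Its signals were 393.8, 449.1, 259.6 and 265.2, or 421 ± 39.1 against 262 ± 3.96 (SD, n = 2). The ratio was 1.61, and it was even between experiments at 1.52 and 1.69, with a log2 fold change of 0.65 (SE 0.26). A higher ratio was found for 9.8% of tested probe sets, but calf-1 was selected with these signals known. The list of voltage-gated calcium channel genes, not all of them known to be served by calf-1, stood on the same side. Of the 7 listed, calf-1 included, 6 were higher without overlap, against 30.9% of all tested genes. The median log2 fold change was 0.52, and cca-1 was the lowest at 0.12. None of the 7 passed the test, and with the replicate block 1 did, tag-180, a channel subunit gene that had the largest log2 fold change (0.79). After division of each array by its median the list's median was 0.25 and calf-1 had 0.39. The pan-neuronal genes had a median of 0.55 and the intestine genes one of 0.45. The part of cell composition in the channel values was not tested.

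ric-8 (Y69A2AR.2, chromosome IV) codes for a chaperone and exchange factor of G alpha subunits, which acts in transmitter release and in placing the mitotic spindle of the embryo. It has 2 probe sets, and they did not give the same picture. The first read 444.4, 1752.0, 449.2 and 580.0, so replicate 2 labelled daf-19(-) alone stood apart and the groups overlapped. The mean was 1098 ± 925 against 515 ± 92.5 (SD, n = 2), a ratio of 2.13, which was 0.99 in experiment 1 and 3.02 in experiment 2. Without replicate 2 labelled daf-19(-) the ratio was 0.86. Its arrays labelled daf-19(-) differed 3.94-fold, a gap that only 41 of the 13096 tested probe sets (0.313%) matched or passed. The second read 957.8, 607.6, 784.7 and 717.0, and there replicate 2 labelled daf-19(-) was the lowest array. Its ratio was 1.04, with 1.22 and 0.85 in the experiments. Both probe sets carry the suffix of sets that may match more than 1 transcript. ric-8 thus counts among the genes past 2-fold through 1 array of 1 probe set.

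Of the 12 tested genes of G alpha signalling, ric-8 included, none passed the limma test, and 2 had a mean signal 2-fold or more higher, against 3.28% of all tested genes. With the replicate block these 2 passed it. Beside ric-8 this was gsa-1, which codes for the stimulatory G alpha subunit, at 954.8, 901.7, 655.1 and 243.7 (log2 fold change 1.18). There replicate 2 labelled daf-19(+) was the low array. dgk-1, the diacylglycerol kinase that opposes G alpha q signalling, had a log2 fold change of 0.83. The list's median of 0.25 became -0.02 when each array was divided by its median, and then 0 of the 12 were past 2-fold. In 3 of the 4 fits that left out an array, 1 gene of the list passed.

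T05C12.8 and ZK682.7 have no assigned worm function. T05C12.8 (chromosome II) had signals of 186.7, 134.9, 7.5 and 70.5, or 161 ± 36.6 against 39.0 ± 44.5 (SD, n = 2). Both arrays labelled daf-19(+) were below the filter's signal of 80, and the groups did not overlap. How far such dim signals lie above background is not known, and with 80 in their place the ratio would be 2.01. The ratio of measured means was 4.12 and the log2 fold change 1.96 (SE 0.57). Replicate 1 labelled daf-19(+) set most of this size, since the ratio was 24.9 in experiment 1 and 1.91 in experiment 2. It was 2.28 without that array and 21.4 without replicate 2 labelled daf-19(+). These 2 arrays differed 9.4-fold, and 52 of 13096 probe sets (0.397%) had arrays labelled daf-19(+) as far apart.

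For ZK682.7 (chromosome V) the arrays of each group were closer together. It read 608.6, 705.8, 221.3 and 314.6, or 657 ± 68.7 against 268 ± 66.0 (SD, n = 2), and the groups did not overlap. The ratio of 2.45 was 2.75 in experiment 1 and 2.24 in experiment 2, and with each array left out in turn it lay between 2.09 and 2.97. The log2 fold change was 1.26 (SE 0.26). osta-1 and ZK682.7 were the candidates with a ratio of 2 or more in both experiments, which 1.55% of all tested probe sets had.

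**Figure D2:**
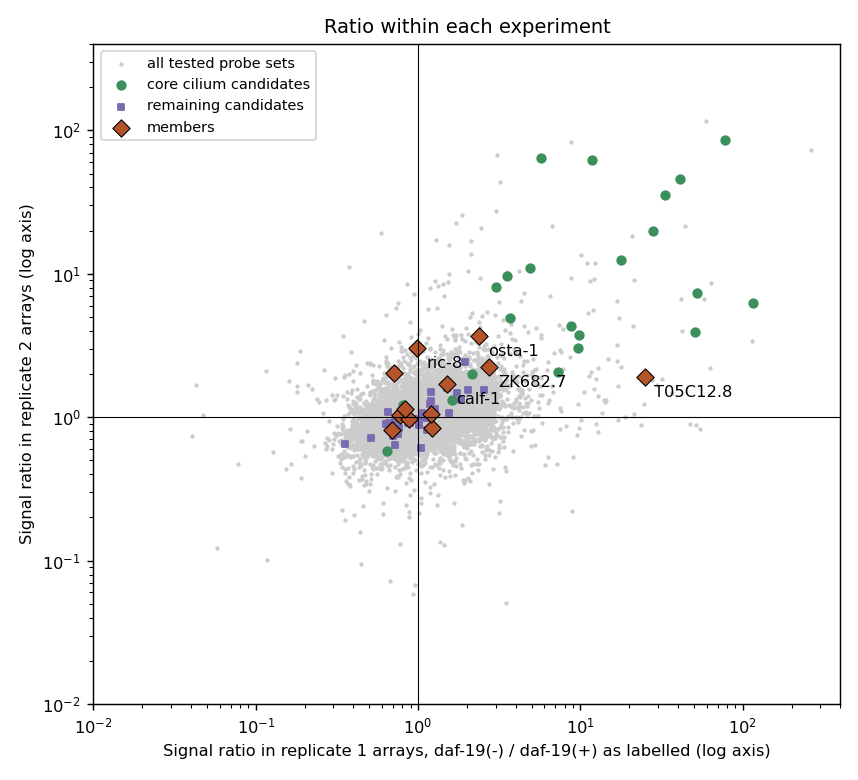
Signal ratio, labelled daf-19(-) over labelled daf-19(+), on the replicate 1 arrays (x axis) and the replicate 2 arrays (y axis), both log axes, for all tested probe sets (grey), core cilium candidates (green), remaining candidates (squares) and the 12 probe sets of the 9 genes (diamonds). osta-1 and ZK682.7 lie above 2 on both axes, T05C12.8 at 24.9 and 1.91, and 1 ric-8 probe set at 0.99 and 3.02.

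The other genes lay near a ratio of 1 or below it. npp-25 (Y37D8A.17, chromosome III), a relative of a nuclear pore and endoplasmic reticulum membrane protein, was dim at 67.3, 103.0, 95.2 and 50.6. The ratio of 1.17 was 0.71 in experiment 1 and 2.04 in experiment 2, so the experiments ran in opposite directions, as they did for 33.4% of all tested probe sets. Of 24 tested nucleoporin genes, npp-25 had the highest log2 fold change at 0.21 (SE 0.46), and it was -0.02 both after quantile normalization and after dividing each array by its median. The median of the 24 was -0.21. For 16 both arrays labelled daf-19(-) were below both labelled daf-19(+), against 23% of all tested genes, but none passed the limma test. With the replicate block npp-4 alone passed, as lower. The lowest values were -0.59 for npp-4 and -0.53 for npp-23.

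pdhb-1 (C04C3.3, chromosome IV) codes for the E1 beta subunit of pyruvate dehydrogenase, the mitochondrial enzyme that turns pyruvate into acetyl-CoA. One probe set read 912.0, 748.5, 1031.8 and 764.3 and the other 2107.3, 1633.4, 1745.4 and 1556.0. Both overlapped between groups, and their ratios of 0.92 and 1.13 lay on either side of 1. In each probe set the replicate 1 array of a group was brighter than its replicate 2 array. The 6 listed genes of the complex and its regulators had a median log2 fold change of -0.19. The lowest were -0.41 for pdha-1, the E1 alpha subunit, and -0.31 for dld-1, the E3 subunit, and none of the 6 passed the test.

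xbx-6 (F40F9.1, chromosome V), a TMBIM family protein related to vertebrate inhibitors of cell death had nearly level signals. It read 2336.5, 2395.9, 3022.8 and 2310.4 with one probe set and 1811.4, 1873.4, 2194.3 and 1642.6 with the other. The high array in both was replicate 1 labelled daf-19(+), and the groups overlapped. The name of the second marks a set that may also detect other sequences. The ratios were 0.89 and 0.96, and both passed 1 without that array, at 1.02 and 1.12. Its relatives tag-120 and tmbi-4 had log2 fold changes of 0.55 and 0.28, and neither passed the test.

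F09G2.8 (chromosome V), a relative of the phospholipase D family, was the 1 candidate with both arrays labelled daf-19(-) below both labelled daf-19(+). Its signals were 676.6, 659.7, 982.1 and 811.7, or 668 ± 11.9 against 897 ± 121 (SD, n = 2). The ratio was 0.74, with 0.69 and 0.81 in the experiments, and between 0.68 and 0.82 with an array left out. The log2 fold change was -0.41 (SE 0.22). pld-1, the phospholipase D gene itself, had one of 0.35.

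**Figure D3:**
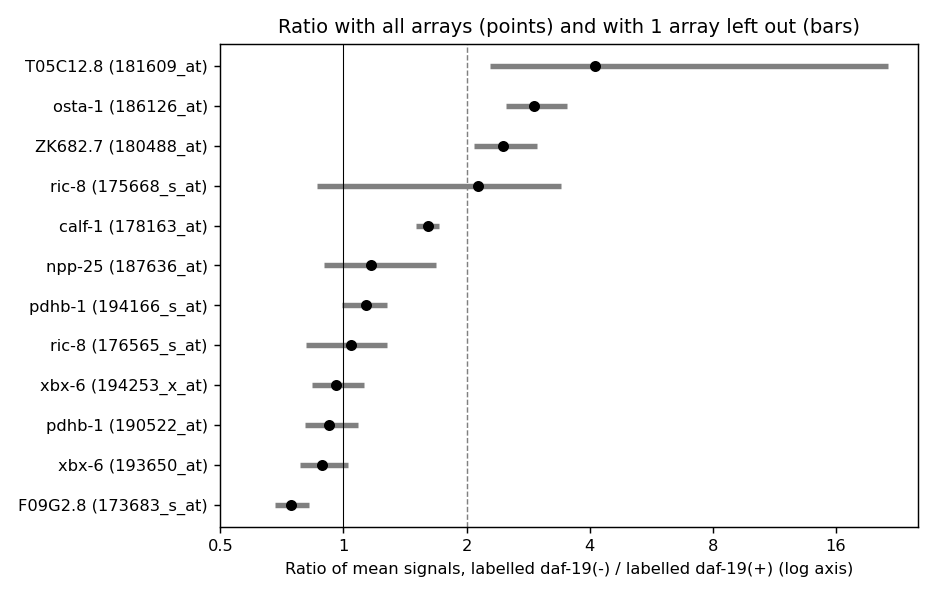
Ratio of mean signals of each probe set with all 4 arrays and with each array left out in turn, on a log axis. ZK682.7 stays between 2.09 and 2.97 and osta-1 between 2.50 and 3.52, while T05C12.8 runs from 2.28 to 21.4 and the first ric-8 probe set from 0.86 to 3.40.

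The 9 genes were set beside the rest of the study's X-box list. Each gene was represented by its brightest tested probe set. The 22 tested core cilium candidates (IFT, Bardet-Biedl and similar genes) had a median log2 fold change of 2.15, and 19 had a mean signal 2-fold or more higher, against 3.28% of all tested genes. Of these 22, 8 passed limma's test as higher and 0 as lower, against 0.422% and 0.0925% of all tested genes. With the replicate block 18 passed, and 2 when dim probe sets were kept in the test. With replicate 2 labelled daf-19(+) left out 18 passed, and without either array labelled daf-19(-) none did, because only 4 and 3 of them then passed the filter. Of the 19 genes past 2-fold, all but che-11 were under the filter's signal on both arrays labelled daf-19(+). These included all 8 that passed limma's test. They entered the test only through the arrays labelled daf-19(-). How far such dim signals lie above background is not known, so the sizes of their ratios are uncertain. The share of all tested genes that entered in this way was not taken. The 33 tested remaining candidates had a median of -0.06, none passed the test (4 higher and 1 lower with the replicate block), 1 was 2-fold or more higher and 0 were 2-fold or more lower, against 3.28% and 1.05% of all tested genes. This was nhr-42, a nuclear hormone receptor gene, at 352.3, 422.6, 182.2 and 174.0. The 9 genes had a median of 0.65, which was 0.21 with ric-8 represented by its other probe set, and all 9725 tested genes had one of 0.06. All 3 groups were drawn with these arrays known, and whether they differ was not tested.

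**Figure D4:**
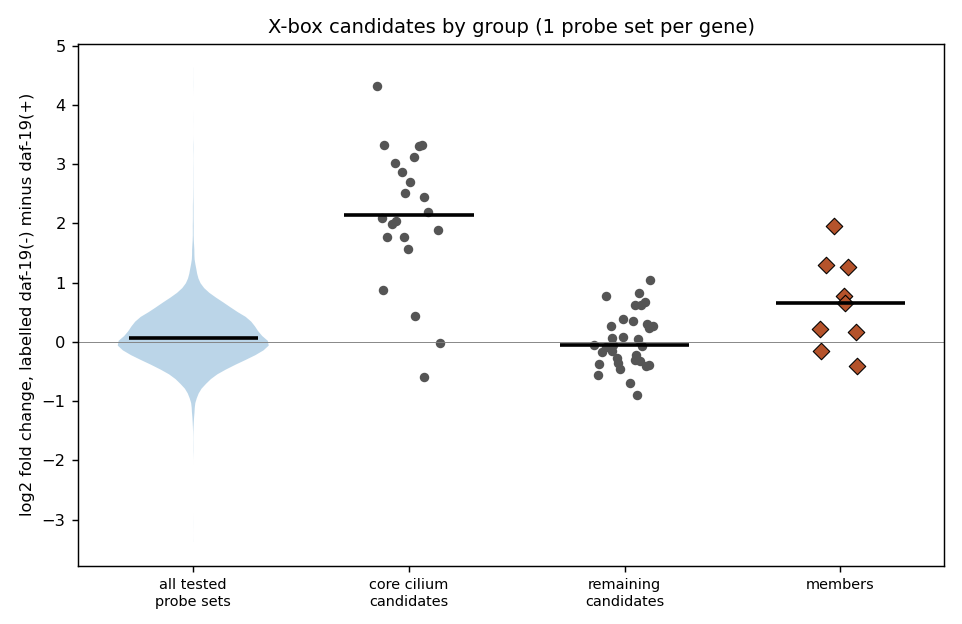
Log2 fold change on the log2(signal + 16) scale, labelled daf-19(-) minus labelled daf-19(+), of the core cilium candidates, the 9 genes and the remaining candidates, 1 point a gene, beside all tested probe sets. The medians are 2.15, 0.65 and -0.06 for the 3 gene groups.

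**Figure D5:**
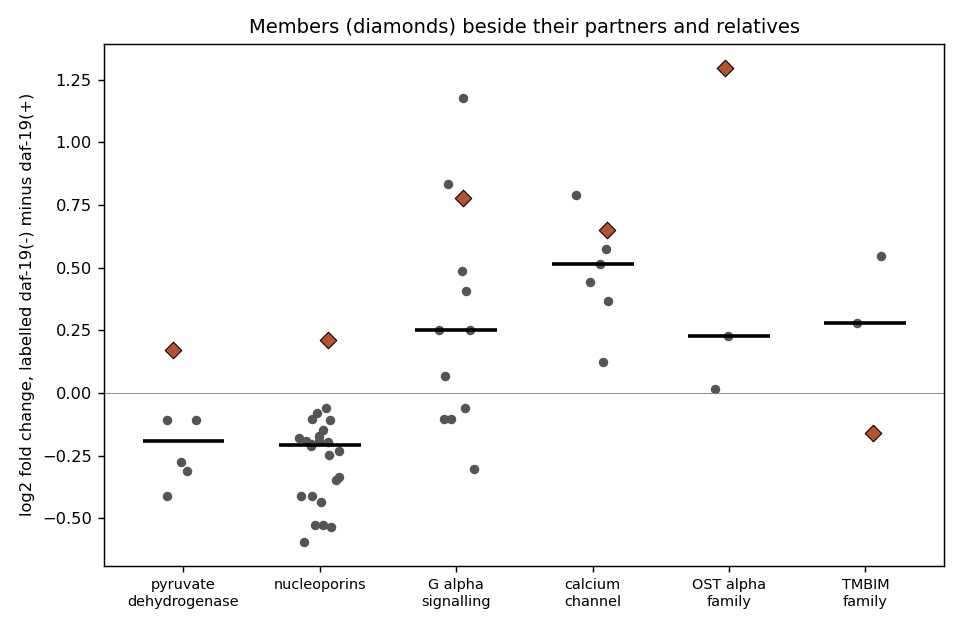
Log2 fold change, on the same scale, of the genes that share a complex, pathway or family with a candidate, 1 point a gene, with the candidate marked. npp-25 lies at the top of the nucleoporins, and calf-1 lies among channel genes with a median of 0.52.

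The genes whose signals varied most like those of the non-overlapping candidates past 2-fold were taken from 12491 probe sets by the distance between centred log2(signal + 16) values over the 4 arrays. The nearest to osta-1 were F25D1.3 (distance 0.06), at 151.1, 173.2, 65.0 and 45.8, and fmil-1 (0.07), with a ratio of 3.04. The nearest to ZK682.7 were the cuticle collagen gene col-152 (0.06), at 83.1, 92.9, 19.5 and 34.6, and Y51F10.7 (0.14). T05C12.8 had no neighbour as close. Its nearest were F55A4.3 (0.44), at 219.9, 142.7, 17.2 and 64.3, and R10H10.4 (0.49). Next came the Bardet-Biedl gene bbs-8 (0.55), then skpo-3 (0.57) and the Bardet-Biedl gene bbs-5 (0.58). With 4 arrays many probe sets can share a pattern, so nearness is a description of these signals.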

How the data were processed

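RNA of embryos was measured on 4 arrays, 2 per group. The authors processed the scans in GCOS, whose version is not given here, to a target signal of 500 per chip. The deposited signals have a linear intensity scale, with neither depth nor detection calls. The study calls sample 2 a biological replicate, and no more is said of separate cultures, so p-values measure the spread between these samples, which may be technical.

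Controls (77 of 22625 probe sets) were left out. The platform annotation names 1 gene for 20766 of the others, several for 887 and none here for 895, and updated symbols came from RefSeq. The 13096 probe sets that reached 80 on 2 or more arrays entered the test, limma 3.58.1 in R 4.3.3. Values were log2(signal + 16), lmFit was followed by eBayes with trend, and two-sided p-values were adjusted by Benjamini-Hochberg to a threshold of 0.05. Log2 fold changes use the offset of 16 and understate changes of dim genes, and ratios of mean signals use none. The script was tested on simulated data, with changes set only in bright probe sets. T05C12.8, osta-1, npp-25, calf-1 and most core cilium candidates are dimmer than these, so that test does not cover them. The study's table sets arrays of one number side by side, so the numbers were taken as experiments. Differences between replicates 1 and 2 correlated at 0.12 between groups. The study's fold columns were not used, and 0 columns of other samples were left.

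The members and lists were chosen with earlier results of these data known. Named genes were all 9 candidates, the 2 listed partners with the largest absolute change, the 2 probe sets closest in pattern to osta-1, T05C12.8 and ZK682.7, daf-19, and adjacent genes, which replaced head-to-head genes because the table used gives no strand. Others (osta-3, tmbi-4, nhr-42, skpo-3, bbs-5 and bbs-8) were named after their values were seen. Alternatives were other filters, scalings, offsets, no trend, a replicate block and leaving out each array.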

Additional observations from a re-analysis of the deposited data

How the results depend on the processing

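The count of 0 probe sets called higher became 1 with a filter of 200 (9 tested) and 1 with an offset of 64, ZK682.7 in both. It became 3 with the replicate block, and it ran from 0 to 2 with each array left out: ric-8 without replicate 1 labelled daf-19(-), and ZK682.7 and T05C12.8 without replicate 2 labelled daf-19(+). The block fit took its spread from the trend alone and called 572 and 394 probe sets higher and lower over the array, against 47 and 11. The count called lower was 0 under each alternative run. The 4 probe sets past 2-fold became 2 with a filter of 200, which T05C12.8 and osta-1 did not reach on any array, and ran from 1 to 4 with an array left out. These 2 genes were no longer tested without either array labelled daf-19(-), and ric-8 was no longer past 2-fold without replicate 2 labelled daf-19(-) or replicate 1 labelled daf-19(+). Division by the array median left 3, without ric-8, and moved the median log2 fold change of all probe sets from 0.06 to -0.20. Representing ric-8 by its other probe set, chosen after seeing the data, moved the median of the 9 genes from 0.65 to 0.21. The mean of within-experiment log2 ratios also left 3. ZK682.7 stayed past 2-fold under each. Of 147 member values under the alternatives 133 kept their sign, and the 14 that did not belonged to the probe sets of ric-8, xbx-6, pdhb-1 and npp-25. Of the lists, the pan-neuronal markers went from 0 to 7 calls, the remaining candidates from 0 to 3 higher and 1 lower, and the early zygotic markers from 0 to 3 lower, all without replicate 2 labelled daf-19(+). With the block the pan-neuronal markers had 2 calls and the early zygotic markers 4, as lower. The scan of promoters for X-box matches was not run. With 2 arrays a group, their number limits the precision.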

Other observations

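Genes next to a candidate on the chromosome can share an upstream region with it. By the order of protein-coding genes in the RefSeq table, pdhb-1 lies next to dyf-3, an IFT gene needed to build cilia. dyf-3 read 194.3, 258.0, 26.4 and 59.0, in the order labelled daf-19(-) replicates 1 and 2, then daf-19(+). Its log2 fold change was 2.09 (limma adjusted p = 0.0494), while neither pdhb-1 probe set had groups that stood apart. The adjusted p of dyf-3 ran from 0.000144 to 0.289 over the alternatives and was 0.155 without replicate 1 labelled daf-19(+). Without either array labelled daf-19(-) it did not pass the filter.

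npp-25 lies next to mrps-10, a mitochondrial ribosome gene that is also in the X-box list, at 985.9, 866.4, 1483.9 and 951.3 (ratio 0.76). xbx-6 lies next to its relative tag-120, whose ratio was 1.48. ZK682.7 lies between lron-2 (1.55) and F44A2.5 (1.17), both with smaller ratios than its own 2.45. T05C12.8 lies next to the chaperonin gene cct-1, whose 3 probe sets had ratios of 1.00, 0.90 and 0.93. Strand was not used here, so a shared upstream region was not established for any of these pairs, and adjacency was chosen after the data were seen.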
